A study of Mus musculus with 4 samples.

Results

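The genes described here are 9 regulators of T cell quiescence and of exit from lymphoid organs, measured in regulatory T cells (Tregs) of spleen and thymus. They are the zinc-finger factors Klf2 and Klf3, the sphingosine-1-phosphate receptor S1pr1, the repressor Bach2, the HMG-box factors Tcf7 and Lef1, the chromatin organiser Satb1, and the forkhead factors Foxo1 and Foxp1. Members were all probes that carry 1 of these 9 gene names in the scanner files, which gave 17 of the 55681 probes on the array and 9 of its 22296 named genes. Foxp1 had 5 probes, Bach2, Tcf7, Lef1 and Foxo1 had 2 each, and Klf2, Klf3, S1pr1 and Satb1 had 1 each.

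The 4 groups were Tregs of deltaDC spleen, wild-type (WT) spleen, deltaDC thymus and WT thymus, all from male C57BL/6 mice. What deltaDC stands for is not written out in the labels. It is used elsewhere for mice without dendritic cells, and no allele or targeted gene is named by which the genotype could be checked. Ages are not given in the sources used here. Each group was a single array of RNA from the pooled cells of 3 mice per genotype, so no spread between animals was measured and a comparison of 2 arrays has no test. Tregs were sorted as living CD4+CD25+ cells and not on Foxp3, after negative selection of CD4 T cells in spleen and removal of CD8-bearing cells in thymus.

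Resting T cells are held out of division by an active programme of transcription factors. Foxo1, when not kept out of the nucleus by Akt, drives Klf2, and Klf2 in turn drives S1pr1, the receptor that lets a T cell follow sphingosine-1-phosphate out of the thymus or a lymph node into blood and lymph. Foxp1 restrains growth and activation of naive T cells, Bach2 restrains effector genes and is needed for normal Treg numbers, and Tcf7 and Lef1 are the nuclear partners of beta-catenin that maintain naive and memory-like T cells. Satb1 folds chromatin in developing thymocytes and takes part in setting up the Treg programme.

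The Foxp1 results below turn on probes that lie at different places along the gene, so 3 of its 5 probes are shown, each 60 bases long and 5′ to 3′. Capitals mark TGA at the end of the most downstream of the 3.
Foxp1 probe A_55_P2105452: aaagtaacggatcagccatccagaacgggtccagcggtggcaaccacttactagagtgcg
Foxp1 probe A_52_P276792: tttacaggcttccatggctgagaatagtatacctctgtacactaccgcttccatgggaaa
Foxp1 probe A_55_P2088825: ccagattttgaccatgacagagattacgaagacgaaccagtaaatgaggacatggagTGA
The files place these probes on the minus strand of the mouse build mm9, at chr6:99112925-99112984, chr6:98885382-98889719 and chr6:98880084-98880143. The middle one spans 4338 genomic bases for its 60 bases, so it crosses an exon junction.

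Promoter windows of 250 bases before to 50 after a start were available from RefSeq (GRCm38.p6) for 8 of the 9 genes, 18 windows in all. Each was searched on both strands for GGGCGG (GC box), CCACACCC (KLF type), TGTTTAC (FOXO type), CTTTGAT (TCF/LEF type), CTANNNNTAG (MEF2 type) and TGANTCA (AP-1 type). Those motifs occurred in 35.7%, 3.56%, 3.65%, 3.73%, 3.69% and 7.81% of 32851 windows of the same length. Klf2 and 1 window of Tcf7 are shown because only they among the 18 held a match other than the GC box, with matches in capitals.
Klf2: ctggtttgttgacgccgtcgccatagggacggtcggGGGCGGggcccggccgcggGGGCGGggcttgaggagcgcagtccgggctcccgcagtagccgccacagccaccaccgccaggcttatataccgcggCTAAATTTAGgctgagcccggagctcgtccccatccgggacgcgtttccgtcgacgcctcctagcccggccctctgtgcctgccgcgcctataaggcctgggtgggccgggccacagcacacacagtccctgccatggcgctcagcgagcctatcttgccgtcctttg
Tcf7: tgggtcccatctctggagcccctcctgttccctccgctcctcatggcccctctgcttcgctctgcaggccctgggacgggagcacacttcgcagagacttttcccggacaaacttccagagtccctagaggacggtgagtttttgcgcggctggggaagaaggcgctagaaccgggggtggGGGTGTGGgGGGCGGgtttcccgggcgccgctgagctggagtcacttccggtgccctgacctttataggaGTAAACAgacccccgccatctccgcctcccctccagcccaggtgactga
The Klf2 window, chr8:72318812-72319111 on the plus strand, held 2 GC boxes and 1 MEF2-type match, CTAAATTTAG. The Tcf7 window, chr11:52282546-52282845 on the minus strand, held the KLF-type match as GGGTGTGG, a GC box, and the FOXO-type match as GTAAACA. These are matches of letters and were not tested for binding.

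Levels are given as relative signal, the background-corrected fluorescence divided by the 75th percentile of all probes on its array, and a gene is read from its brightest probe. Levels of different probes cannot be compared with each other. Error is the spread between repeated spots of 1 probe on 1 array, pooled over the repeated probes of the same brightness. It came to 0.07 on the log2 scale for a difference between arrays (0.08 for Bach2 and Tcf7). The 17 member probes had 17 spots, so none was repeated and the error is taken from other probes. It leaves out animals, sorting and labelling. A difference is called beyond spot error where it exceeds 1.96 times that error. All 9 genes were well above background on all 4 arrays.

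Treg markers were present on every array, with 8 of 8 well above background and summed relative signals of 329 in deltaDC spleen, 322 in WT spleen, 483 in deltaDC thymus and 444 in WT thymus. Immature thymocyte markers had sums of 13.9, 16.5, 145 and 156 in the same order, with Rag2, Ptcra, Cd8a and Arpp21 not above background on either spleen array. The Treg sums had Tnfrsf4 and Tnfrsf18 as their largest parts, and single markers differed. Il2ra, the gene of CD25, had 40.0 in deltaDC spleen and 74.6 in WT spleen, a log2 difference of -0.90. Between the spleen arrays, 5 of the 8 Treg markers were lower in deltaDC and none was past 2-fold, where 50.7% of all genes were lower. The deltaDC spleen array stood apart from the other spleen array in markers of other cells. Its NK cell markers summed to 73.0 (7 of 7 above background), against 8.58 in WT spleen (4 of 7, with Ncr1, Klre1 and Klrk1 not above background). Nkg7 made up 60.9 of the deltaDC spleen sum and 6.67 of the WT spleen sum. Neutrophil markers summed to 25.6 in deltaDC spleen (7 of 7), against 0.415 in WT spleen (2 of 7). Innate-like T cell markers summed to 11.5 in deltaDC spleen and 1.42 in WT spleen, and cell cycle genes to 53.8 and 12.8. Dendritic cell markers came to 117 in deltaDC spleen (5 of 8 above background) and 181 in WT spleen (1 of 8), sums that are almost entirely Siglech. Of the others, Itgax was at least 5.43-fold and Zbtb46 at least 5.25-fold higher in deltaDC spleen, and Xcr1 and Clec9a were not above background on any array.

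The comparison of deltaDC with WT Tregs within spleen asks how these genes differ between the genotypes in a peripheral organ. Signal of all 9 genes was lower on the deltaDC spleen array than on the WT spleen array. By the brightest probe, Bach2, a repressor of effector genes, was 2.03-fold lower, Foxp1 1.73-fold lower and Lef1 1.46-fold lower. By the median over probes, Foxp1 at a log2 difference of -1.36 lay below Bach2 at -1.15. That median takes in all 5 Foxp1 probes, among them A_55_P2105446, which was not well above background in deltaDC spleen. It equals the value of probe A_55_P2105436, so this order depends on keeping the dim probe. Of the 12529 genes measured on both spleen arrays, 50.7% were lower in deltaDC. The median log2 difference was -0.47 for the 9 genes and -0.0047 for all genes. Bach2 was the single member past 2-fold lower, where 2% of all genes were, and no member was past 2-fold higher, where 6.42% were. For 8 members the difference exceeded spot error, Satb1 being the exception, and 26.6% of all genes were lower beyond spot error.

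**Figure D1:**
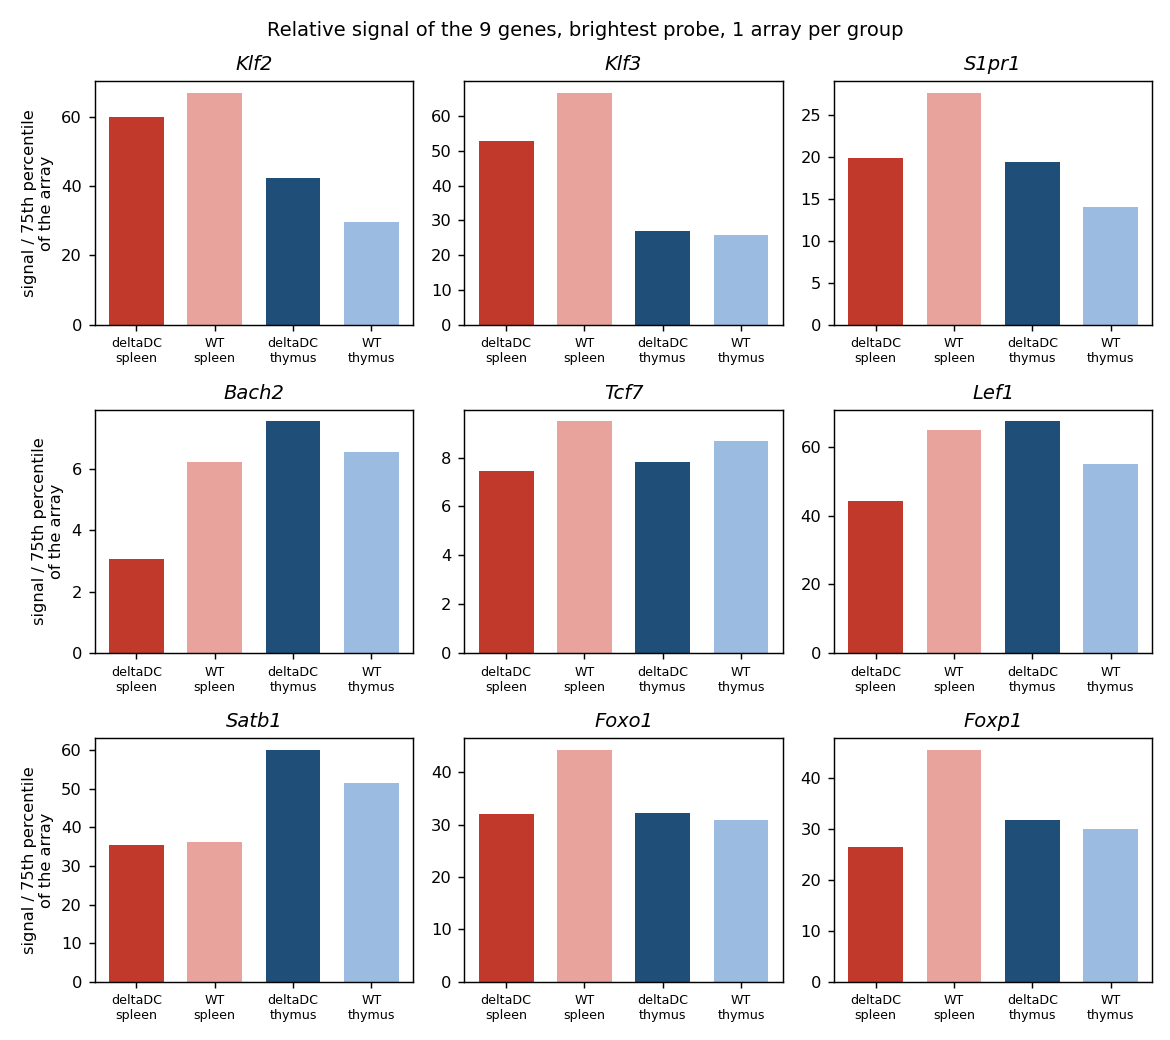
Relative signal (multiples of the array's 75th percentile) of each of the 9 genes on the 4 arrays, 1 bar per array and a y axis from 0 that differs in scale between panels. Bach2 is lowest in deltaDC spleen at 3.06, and Klf2, Klf3 and S1pr1 are highest in WT spleen.

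Bach2 had a relative signal of 3.06 in deltaDC spleen and 6.22 in WT spleen, and of 7.55 in deltaDC thymus and 6.53 in WT thymus. The other arrays lay between 6.22 and 7.55 and deltaDC spleen lay below them, with WT thymus and WT spleen not differing beyond spot error. The log2 difference in spleen was -1.02, and 1.88% of all genes lay further down. It was -0.95 with normexp background correction and -0.998 in the authors' deposited matrix, both just short of 2-fold. In thymus it was 0.21, beyond spot error and in the other direction, but 0.14 with quantile normalization and 0.07 by the median over probes, within spot error.

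Foxp1, which restrains activation of naive T cells, had 26.4 in deltaDC spleen and 45.6 in WT spleen, against 31.8 in deltaDC thymus and 30.1 in WT thymus. WT spleen was the highest array and deltaDC spleen the lowest, while the thymus pair did not differ beyond spot error. The log2 difference of -0.79 in spleen had 3.80% of all genes below it. Foxo1, the factor upstream of Klf2, was also highest in WT spleen, with 32.0 in deltaDC spleen, 44.3 in WT spleen, 32.2 in deltaDC thymus and 30.9 in WT thymus. WT spleen stood above the other arrays, whose neighbours did not differ beyond spot error, and the log2 difference was -0.47 in spleen and 0.06 in thymus.

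Lef1 had 44.3 in deltaDC spleen and 64.8 in WT spleen, and 67.4 in deltaDC thymus and 55.0 in WT thymus. Genotype ran in opposite directions in the organs, with log2 differences of -0.55 in spleen and 0.29 in thymus, both beyond spot error. Tcf7, the other HMG-box factor, had 7.47 in deltaDC spleen and 9.49 in WT spleen, and 7.82 in deltaDC thymus and 8.67 in WT thymus. No neighbours in its order differed beyond spot error, and its whole range over the arrays was 0.35 log2 units, the smallest of the 9. Its spleen difference of -0.35, between the ends of that order, did exceed spot error.

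Klf2 had 59.9 in deltaDC spleen and 67.0 in WT spleen, and 42.3 in deltaDC thymus and 29.8 in WT thymus. All 4 arrays differed from their neighbours in order beyond spot error, though the log2 difference in spleen, -0.16, was -0.09 with normexp background correction and -0.12 in the authors' deposited matrix, within spot error. S1pr1, the egress receptor that Klf2 drives, had 19.9 in deltaDC spleen and 27.7 in WT spleen, and 19.4 in deltaDC thymus and 14.1 in WT thymus. WT spleen was its highest array and WT thymus its lowest, with the pair of deltaDC arrays between them and not differing beyond spot error. Klf3, a repressor of the same family that binds like sequences, had 52.7 in deltaDC spleen and 66.7 in WT spleen, and 26.9 in deltaDC thymus and 25.9 in WT thymus, where the thymus pair did not differ beyond spot error.

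Within thymus, the largest differences between deltaDC and WT among the 9 genes were those of Klf2 and S1pr1. Klf2 was 1.42-fold and S1pr1 1.38-fold higher in deltaDC, log2 differences of 0.51 and 0.47, which 4.00% and 4.70% of the 13039 genes measured on both thymus arrays exceeded. The median was 0.21 for the 9 genes and 0.05 for all genes, and 60.2% of all genes were above 0. Of the 9, 8 were above 0 and 1, Tcf7, was below at -0.15, and 5 differed beyond spot error, as 35.7% of all genes did. With quantile normalization Bach2 at 0.14 and Satb1 at 0.09 were within it. When the arrays were scaled by quantiles instead, Klf3, Foxo1 and Foxp1 were also below 0, at -0.06, -0.05 and -0.03, so no direction is given for these 3 in thymus. No member was past 2-fold, where 1.6% of all genes were.

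**Figure D2:**
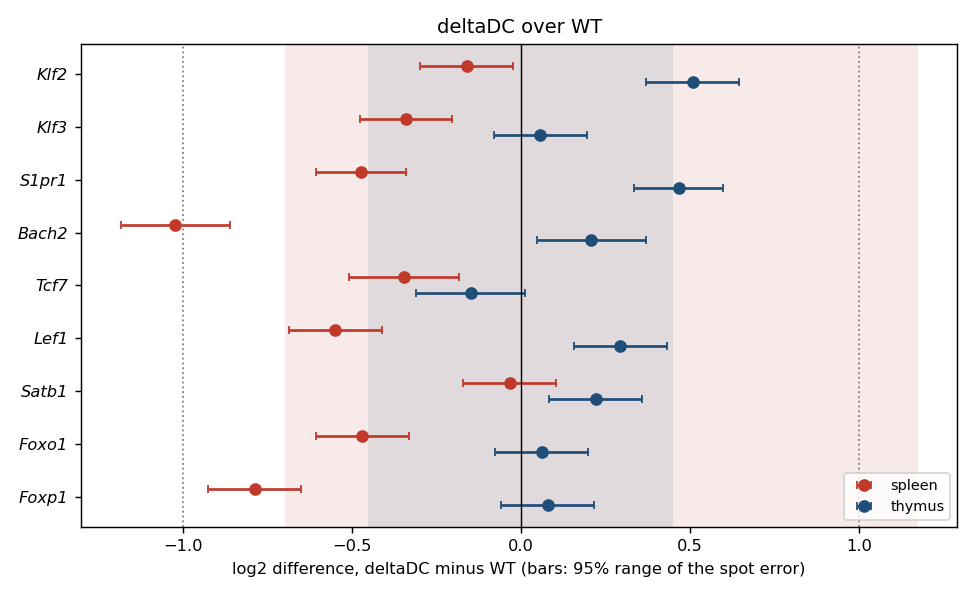
Log2 difference of deltaDC over WT for each gene in spleen and in thymus, with 1.96 times the spot error and a shaded band for the central 90% of all genes (-0.70 to 1.17 in spleen, -0.45 to 0.45 in thymus). All 9 spleen points lie below 0, with Bach2 and Foxp1 below the band, and Klf2 and S1pr1 lie above the thymus band.

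For all 9 genes the difference between deltaDC and WT was higher in thymus than in spleen. This gap was 1.23 for Bach2, 0.94 for S1pr1, 0.87 for Foxp1 and 0.84 for Lef1. It was 0.67 for Klf2, 0.53 for Foxo1, 0.40 for Klf3, 0.25 for Satb1 and 0.20 for Tcf7, with spot errors of 0.10 to 0.12. The median gap was 0.67 for the 9 genes and 0.06 for all genes. Of the 12286 genes above background on all 4 arrays, 2.31% had a gap of at least 1 log2 unit in this direction, as Bach2 did. Lower signal in deltaDC spleen together with higher signal in deltaDC thymus, both beyond spot error, was found in 4 of the 9 genes and in 4.83% of all genes. Of these 4, Bach2 and Klf2 were within spot error in 1 organ under some other settings. With 1 array per group the gap has no test.

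More than 1 probe reported on 5 of the genes. In spleen, all 16 member probes that were above background on both arrays were lower in deltaDC, as were 57.6% of 25618 probes on the array. Of the 16, 4 were past 2-fold lower, where 3.54% of all such probes were. These 4 were both Bach2 probes and the Foxp1 probes A_55_P2105452 and A_55_P2105436. They report on Bach2 and Foxp1 only, and probes of the same gene are not independent. Among the Foxp1 probes the difference was larger towards the 5′ end of the gene. Probe A_55_P2105452 had 1.89 in deltaDC spleen and 5.48 in WT spleen, against 3.45 in deltaDC thymus and 3.16 in WT thymus, a log2 difference of -1.54 in spleen. Probe A_55_P2105436, at chr6:98956679-98956738, had 3.06 in deltaDC spleen and 7.87 in WT spleen, against 4.54 in deltaDC thymus and 3.99 in WT thymus, a log2 difference of -1.36. The junction probe A_52_P276792 gave -0.74 and the probe that ends in TGA gave -0.79.

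All 4 of these Foxp1 probes were lower in deltaDC spleen, and all 4 differed by 0.18 or less in thymus. The junction probe and the probe that ends in TGA were annotated to the same transcript, and the upstream probes each to a different one. The upstream probes were also the dimmer ones. The parts of transcript and of brightness in the gradient were not tested. The remaining probe, A_55_P2105446 at chr6:99102053-99102112, was not well above background in deltaDC spleen. It had relative signals of 0.0348 there and 0.171 in WT spleen, with 0.072 in deltaDC thymus and 0.061 in WT thymus.

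The second Bach2 probe lies upstream of the main probe on the plus strand, at chr4:32588782-32588841 against chr4:32673009-32673068. It had 0.456 in deltaDC spleen and 1.10 in WT spleen, and 1.003 in deltaDC thymus and 1.05 in WT thymus. As with the main probe, deltaDC spleen was the low array, at a log2 difference of -1.27 with a spot error of 0.15. The thymus difference of this probe was -0.06, against 0.21 for the main probe. The second Foxo1 probe, at chr3:52153289-52153348, gave -0.71 in spleen and 0.01 in thymus.

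The second Lef1 probe, which spans 18162 genomic bases at chr3:130907851-130926012 and so crosses an exon junction, gave -0.48 in spleen and 0.28 in thymus, close to the main Lef1 probe. Only the second Tcf7 probe separated the organs beyond spot error. The second probe, at chr11:52066738-52066797 on the minus strand, had 2.49 in deltaDC spleen, 3.05 in WT spleen, 4.87 in deltaDC thymus and 4.18 in WT thymus. Both thymus arrays were above both spleen arrays by this probe. By the main probe, at chr11:52066114-52066173, thymus and spleen did not differ beyond spot error in either genotype. The genotype difference of the second probe was -0.29 in spleen and 0.22 in thymus, against -0.35 and -0.15 for the main probe. The genes with a single probe were read at chr8:74845137-74845196 for Klf2, chr5:65221309-65221368 for Klf3, chr3:115414020-115414079 for S1pr1 and chr17:51879137-51879196 for Satb1.

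**Figure D3:**
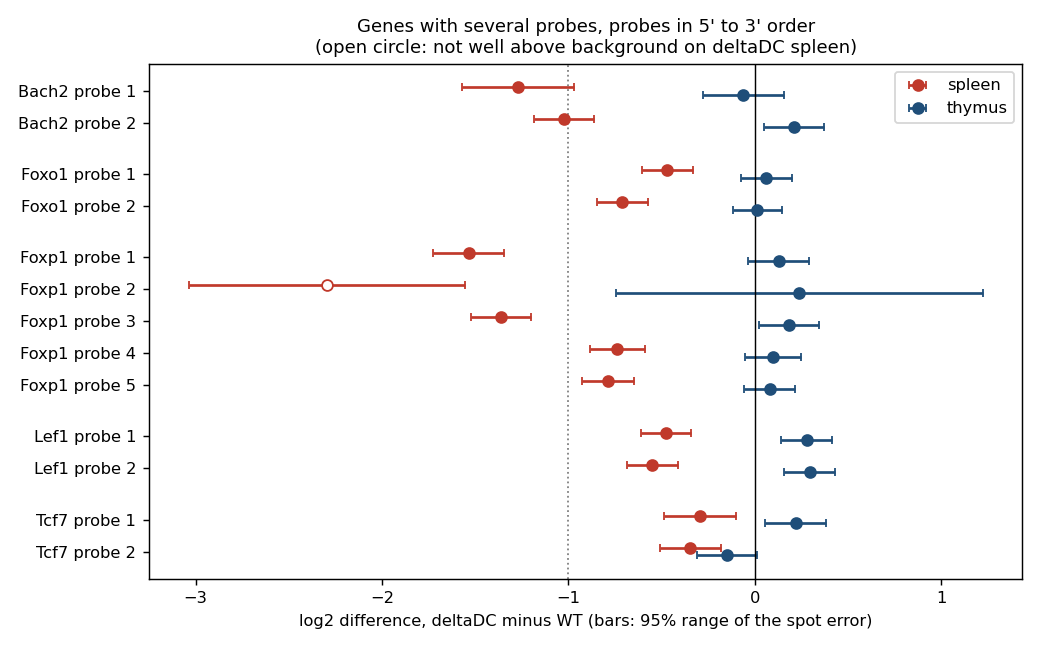
Log2 difference of deltaDC over WT in spleen and thymus for each probe of the 5 genes with more than 1 probe, ordered 5′ to 3′ along the gene, with 1.96 times the spot error and an open circle where a probe was not above background on both arrays. In spleen the Foxp1 probes above background on both arrays lie between -1.54 and -0.74. The open circle is a Foxp1 probe at -2.30. In thymus the 5 Foxp1 probes lie between 0.08 and 0.24.

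Between the WT organs, Klf2, Klf3 and S1pr1 were lower in thymus. In WT Tregs, Klf3 was 2.57-fold, Klf2 2.25-fold and S1pr1 1.97-fold lower in thymus than in spleen, with log2 differences of -1.36, -1.17 and -0.98. Of the 12482 genes measured on both WT arrays, 1.23%, 2.04% and 3.23% lay below these values, and 3.03% were past 2-fold lower, as Klf2 and Klf3 were. With quantile normalization Klf2 gave -0.98, short of 2-fold. No member was past 2-fold higher, where 6.54% of all genes were, and 7 of 9 were below 0, where 58.6% were. Foxp1 gave -0.60, Foxo1 -0.52 and Lef1 -0.24. Satb1, the thymocyte chromatin organiser, was higher in thymus by 0.51, with relative signals of 60.2 in deltaDC thymus and 51.6 in WT thymus against 35.4 in deltaDC spleen and 36.3 in WT spleen. Its thymus arrays lay above its spleen arrays in both genotypes, and the spleen pair did not differ beyond spot error. By their brightest probes, Bach2 at 0.07 and Tcf7 at -0.13 did not differ beyond spot error between the WT organs. The second Tcf7 probe gave 0.46, beyond spot error.

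In deltaDC Tregs the organs differed otherwise. Bach2 was 2.47-fold higher in thymus than in spleen, a log2 difference of 1.30 that 3.60% of 12803 genes exceeded, and 5.37% of those genes were past 2-fold higher. Klf3 was 1.95-fold lower in thymus and Klf2 lower by a log2 difference of -0.50, while S1pr1 at -0.04 and Foxo1 at 0.01 did not differ beyond spot error. Lef1 gave 0.61, Satb1 0.76 and Foxp1 0.27. Tcf7 gave 0.07 by its main probe, within spot error, and 0.97 by its second probe, beyond it. No member was past 2-fold lower, where 6.15% of all genes were, and 3 of 9 were below 0, where 51.9% were. The medians were -0.52 for the 9 genes and -0.08 for all genes in WT Tregs, and 0.07 and -0.02 in deltaDC Tregs. The 2 organ comparisons and the 2 genotype comparisons use the same 4 arrays, so they are not independent of each other.

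**Figure D4:**
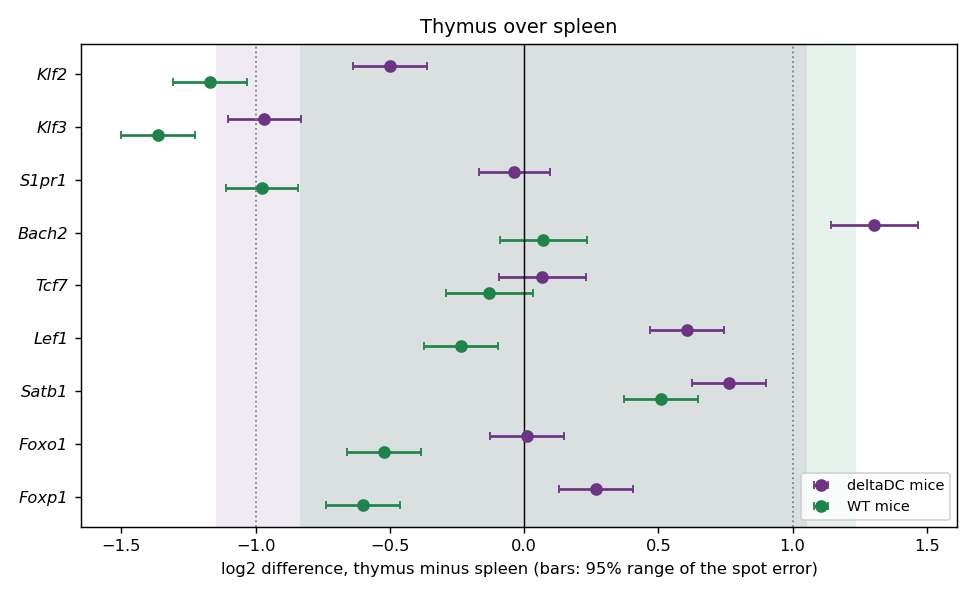
Log2 difference of thymus over spleen for each gene in deltaDC and in WT Tregs, with 1.96 times the spot error and a shaded band for the central 90% of all genes (-1.15 to 1.05 in deltaDC, -0.83 to 1.24 in WT). In WT, Klf2, Klf3 and S1pr1 lie below the band, and in deltaDC only Bach2 lies above it.

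A model with genotype and organ as additive terms over the 4 arrays has 1 residual degree of freedom and was fitted with limma. None of the 9 genes passed an adjusted p of 0.05 for genotype, nor did any of the 13491 genes tested, of which 4.37% had an unadjusted p under 0.05. The members' adjusted p for genotype in limma lay between 0.806 and 0.999, and 0 of 9 had an unadjusted p under 0.05. For organ, 64 of 13491 genes passed in limma (0.474%), and no member was among them. Unadjusted p under 0.05 was reached by 20.2% of all genes and by 3 members. Klf3 had an organ effect of -1.17 ± 0.18 (SE) with an adjusted p of 0.149 in limma. Satb1 had 0.64 ± 0.16 with an adjusted p of 0.211, and Klf2 had -0.83 ± 0.24 with an adjusted p of 0.236. The model holds no interaction, so members whose organ differences ran apart between genotypes, such as Bach2 and S1pr1, fall in its residual.

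Other genes of these pathways were read from 6 lists. The lists were chosen with earlier results of these data known, so counts in them are descriptions. Of the 12 measured genes of naive T cell homing and survival, 4 were past 2-fold lower in deltaDC spleen (2% of all genes). In the same list 1 was past 2-fold higher (6.42% of all genes), and the median was -0.68. The lower ones were Igfbp4 at -2.21, Dapl1 at -2.00, Il6ra at -1.29 and Bcl2, the survival factor, at -1.20. Ccr7, the homing receptor for T zones, gave -0.86. Il7r, the interleukin-7 receptor chain and a Foxo1 target, went the other way at 0.99, and the thymic homing receptor Ccr9 was past 2-fold higher at 1.11.

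In the other quiescence factors, 13 of 15 were below 0 in deltaDC spleen with a median of -0.34 and none past 2-fold, where 50.7% of all genes were below 0. Of the egress pathway genes, which include the other sphingosine-1-phosphate receptors and its transporters and enzymes, 12 were measured with a median of -0.09, and S1pr3 was past 2-fold higher, at 1.59 with a spot error of 0.38. Spns2, not above background in WT spleen, was at least 2.06-fold higher in deltaDC spleen. Of 10 genes of PI3K, Akt and mTOR signalling, the pathway that holds Foxo1 out of the nucleus, Sgk1 was past 2-fold higher at 1.36 and the median was 0.08.

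Effector differentiation genes had the highest median of the 6 lists in spleen, while NK cell and innate-like T cell markers had medians of 3.69 and 3.16. Of 12 measured, 11 were past 2-fold higher in deltaDC spleen, where 6.42% of all genes were, and the median was 3.04. The 11 included Id2 at 3.55, Tbx21 at 3.15 and Prdm1, the repressor that marks effector Tregs, at 1.82. Several of these genes are also expressed by NK and innate-like T cells, whose markers were higher on the same array, and the part of such cells in these values and in the members' lower signal was not tested. In pooled cells of this kind, fewer cells of a type and less RNA per cell cannot be told apart. All 7 measured cell cycle genes were past 2-fold higher in deltaDC than in WT spleen, with a median of 2.20, against 6.42% of all genes. This list too was chosen with earlier results known.

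In thymus, none of these 6 lists had a gene past 2-fold between genotypes, and their medians lay between -0.08 and 0.10. Markers of B cells, neutrophils and erythroid cells summed to 18.3, 6.32 and 44.2 in deltaDC thymus, against 8.99, 2.41 and 10.6 in WT thymus. Of 5 dendritic cell markers measured on both thymus arrays, 4 were lower in deltaDC, where 39.8% of all genes were. Ccl17 gave -1.93 with a spot error of 0.38, and Flt3 was higher at 0.73. Cd209a, not above background in deltaDC thymus, was at least 7.57-fold lower there. The part of all these cells in the thymic values of Klf2 and S1pr1 was not tested. For genotype and for organ, no gene of the 6 lists passed an adjusted p of 0.05 in limma.

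**Figure D5:**
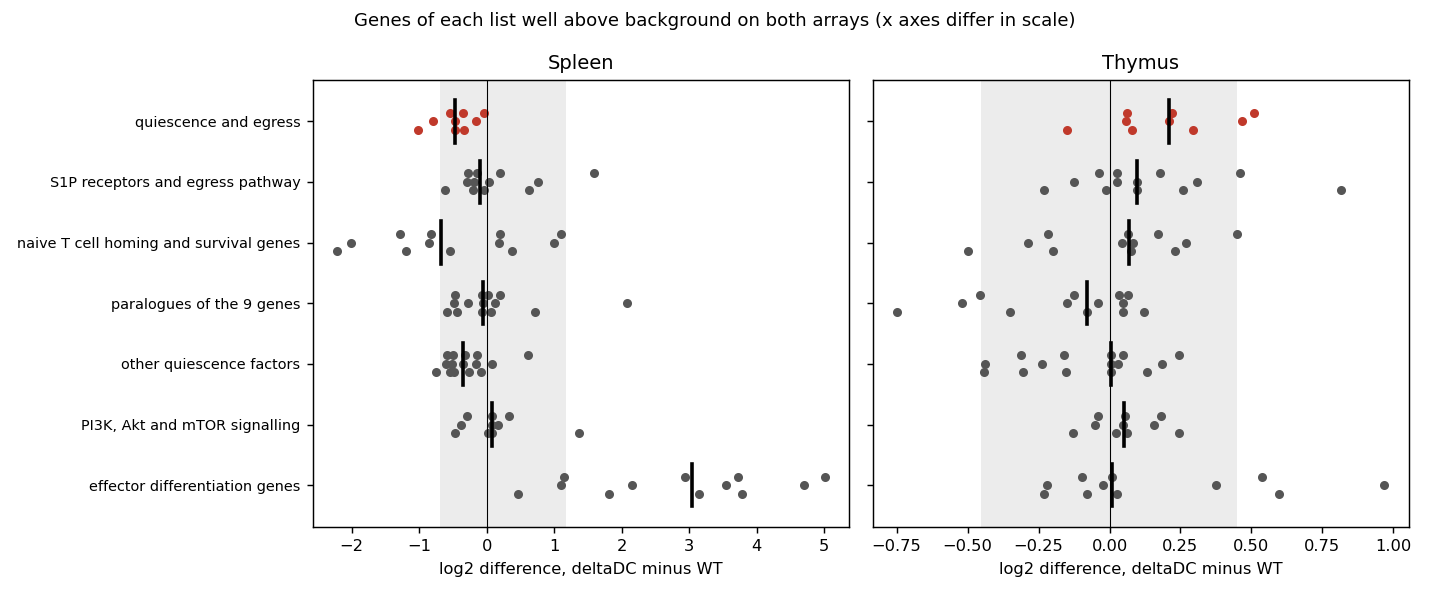
Log2 difference of deltaDC over WT for the genes of each list in spleen and in thymus, 1 point per gene above background on both arrays, with the list's median as a bar, the central 90% of all genes shaded and x axes that differ in scale. The effector differentiation list has a median of 3.04 in spleen and 0.01 in thymus, and the quiescence and egress genes have -0.47 and 0.21.

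Across organs in WT Tregs, 11 of 12 measured egress pathway genes were lower in thymus, with a median of -0.42 and none past 2-fold, where 58.6% of all genes were lower. Spns2, the sphingosine-1-phosphate transporter, was not above background in WT spleen and was at least 8.95-fold higher in WT thymus. In the same comparison 14 of 15 other quiescence factors were lower, with a median of -0.50. Tsc22d3, a glucocorticoid-induced leucine zipper protein, gave -1.17 and Txnip, an inhibitor of thioredoxin and glucose uptake, gave -1.04. In deltaDC Tregs the medians of these lists were -0.32 and -0.15. All 7 measured cell cycle genes were past 2-fold higher in thymus than in spleen of WT mice, where 6.54% of all genes were. Their median was 2.23, and immature thymocyte markers were higher in thymus as given above. Their part in the lower thymic signal of Klf2, Klf3 and S1pr1 was not tested.

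Genes with the profile over the 4 arrays most like a member were looked up for Klf2, Klf3 and Bach2, the members whose highest array was at least 2-fold above the lowest, as in 19.4% of all genes. Likeness was the Euclidean distance between mean-centred log2 values over 4 arrays, which is a description with few points. Nearest to Klf2 were Tnfrsf22 at 0.0738, Tead2 at 0.142 and Boll at 0.163. Nearest to Klf3 were Ms4a6b at 0.0277, Stxbp5 at 0.0512 and Gbp3 at 0.117. Nearest to Bach2 were Tlr7 at 0.107, Igf2r at 0.110 and Dip2c at 0.111.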

How the data were processed

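RNA of sorted Tregs was labelled with Cy3 and hybridised to 4 one-colour Agilent arrays on 1 slide, per the labels. Scanner files deposited by the authors give fluorescence intensity read, per the file headers, by Agilent Feature Extraction 10.7.3.1, with background subtracted within each array and no scaling between arrays. The authors also deposited a matrix of log2 values, with background subtraction and quantile normalization per its header; the tool is not given in the sources used here. It served as an alternative.

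Outlier spots (110 to 168 per array) were removed and 0 spots were saturated. Log2 intensity minus the array's 75th percentile (391 in deltaDC spleen, 340.2 in WT spleen, 418 in deltaDC thymus, 407 in WT thymus) was the main value, and between 48.7% and 50.7% of spots were well above background. The brightest probe stood for a gene. Genes above background on both arrays were counted at 2-fold. A genotype plus organ model used limma 3.58.1 (R 4.3.3, two-sided, Benjamini-Hochberg adjusted p) on 13491 genes above background on at least 2 arrays. It was also run on simulated data, in which genotype changes were added to some genes and the only noise was spot error. Those data held no spread between animals, sorting or labelling, so they cannot show how the model performs on the real arrays. The number of arrays limits the precision.

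Probes were named by accession through a GRCm38.p6 table, or kept the file's name where that table held it. Of 55681 probes, 24623 stayed unnamed and are not in the counts over all genes. Coordinates are those of the files (mm9). All members' values are shown. Nearest profiles were named for members with a range of at least 2-fold, 3 each, and list genes by passing 2-fold or for their known role. The members and all lists were chosen with earlier results of these data known. Alternatives were normexp, quantile scaling, other percentiles, outliers kept, the median probe, the matrix and other filters.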

Additional observations from a re-analysis of the deposited data

Results flagged for a closer look

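For 4 genes the difference between deltaDC and WT was beyond spot error in opposite directions in the organs, with 1 array per group and the difference between organs not tested. The gap, thymus minus spleen, was 1.23 for Bach2, from log2 differences of 0.21 in thymus and -1.02 in spleen. For S1pr1 it was 0.94, from 0.47 in thymus and -0.47 in spleen. For Lef1 it was 0.84, from 0.29 and -0.55, and for Klf2 it was 0.67, from 0.51 and -0.16. Of all genes above background on the 4 arrays, 4.83% were likewise lower in deltaDC spleen and higher in deltaDC thymus beyond spot error. Bach2 in thymus was within spot error with quantile normalization (0.14), with the percentile over detected probes (0.15), in the authors' deposited matrix (0.15) and by the median over probes (0.07), and its second probe gave -0.06. Klf2 in spleen was within spot error with normexp (-0.09) and in the matrix (-0.12).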

How the results depend on the processing

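In all 9 settings the 9 genes were below 0 for deltaDC over WT in spleen, and their thymus-minus-spleen gap was above 0. Past 2-fold in spleen was 1 member in the main setting, 0 with normexp or the authors' deposited matrix (Bach2 at -0.95 and -0.998) and 2 with the median over probes (Foxp1 at -1.36). The Foxp1 median includes the probe that was not well above background in deltaDC spleen. Past 2-fold between WT organs were 2 members, and 1 with quantile normalization (Klf2 at -0.98). A gap of at least 1 was held by 1 member, and by 2 with the median over probes. In thymus 1 member was below 0, against 4 with quantile normalization or the matrix, 2 with the percentile over probes detected on all arrays and 0 with the median over probes. Of single differences under an alternative, 236 moved by less than spot error and 52 by more, with no called value reversed. The cause was not tested. The settings that change only the filter on dim genes cannot move a member's difference. Nor can the median over probes move that of a gene with a single probe. These cases count among the 236 and among the 9 settings above. Over all genes, 1055 passed 2-fold between genotypes in spleen, against 571 with normexp and 3096 with no filter on dim genes. In thymus 208 passed, against 58 and 1655, and 136 when only genes measured on the 4 arrays were kept. Between WT organs 1194 passed, against 707 and 3309, and between deltaDC organs 1476, against 950 and 3562. The share of all genes below 0 in thymus between genotypes was 39.8%, against 51.0% with the percentile over detected probes. For organ, limma called 64 genes, against 219 with normexp, 24 with outliers kept and 0 in the other settings that were fitted. No paired analysis was possible because each group has 1 array and the labels give no replicate numbers.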

Other observations

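Paralogues of the 9 genes were measured beside them. Of 14 measured in spleen, Klf12 alone was past 2-fold between genotypes, at 2.09 with a spot error of 0.38, and the median was -0.06. Of all genes, 6.42% were past 2-fold higher and 2% past 2-fold lower. Between WT organs, Klf12 at 1.83 (spot error 0.38) and Klf10 at 1.05 were past 2-fold higher in thymus, where 6.54% of all genes were. Klf6 at -1.05 was past 2-fold lower, where 3.03% were. Both Klf12 values rest on a WT spleen signal of 20.1, near the lowest signal well above background there, 15.2. Between the deltaDC organs Klf6 gave -1.33, where 6.15% of all genes were past 2-fold lower. Sgk1, a kinase that phosphorylates FOXO factors, gave -1.88 in thymus over spleen of deltaDC mice, and the sphingosine-1-phosphate transporter Spns2 gave 2.93.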
